A study of Erythranthe nudata with 6 samples.

Results

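The genes described here had low values in wild-type ovule-bearing tissue of the monkeyflower Mimulus nudatus (also named Erythranthe nudata). They had higher values in every library of a mutant with carpel-like ovules. They numbered 27 of the 28064 genes in the table, which is 0.0962%. A gene was a member if it lay below 1 CPM in each wild-type library, reached at least 0.5 CPM in each mutant library, and had a lowest mutant value of at least 2 times its highest wild-type value. CPM here is the count per 1000000 counts of the library, with no other scaling. Because these values chose the members, the differences between genotypes given for them are a description of the choice and not a test of it.

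The mutant libraries came from 3 plants homozygous for a recessive mutation, named Medusa in the title of the series, that had arisen in an inbred line called GMR2. The wild-type libraries came from 3 plants homozygous for the normal allele. Both genotypes came from the F2 of crosses between wild-type plants and mutant pollen donors of that line. From each plant 6 gynoecia of open flowers were opened and stripped of their valves, and the septum with its ovules was taken whole. Each library therefore mixed ovules with septum tissue, and more cells of one kind cannot be told apart from more RNA per cell. The mutated gene is not named in the sources used here, so its own transcript could not be read as a check of the genotypes.

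An ovule is the seed precursor of a flowering plant, a nucellus wrapped in integuments that encloses the female gametophyte. A carpel is the floral organ that bears the ovules and forms the ovary, style and stigma. In Arabidopsis, ovule identity depends on MADS-box transcription factors such as SEEDSTICK and the SHATTERPROOF proteins and on the homeodomain protein BELL1, and loss of these factors can turn ovules into carpel-like structures. Whether any of those genes was among the members could not be asked, because the files do not pair their identifiers with gene names, functions or sequences. For the same reason the tissue label could not be checked against marker genes, nor could markers of pollen, petal or ovary wall be read. Only 2 of the members are given by identifier, by a rule stated with the processing, and the others are given by their rank in mean mutant CPM. CPM is not corrected for transcript length, so the ranks order reads and not transcript numbers.

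Total counts per library lay between 35487055 and 45149217, with mutant replicate 2 the shallowest. The minimum of 0.5 CPM corresponded to 17.7 to 21.0 counts in a mutant library, and the ceiling of 1 CPM to 37.8 to 45.1 counts in a wild-type library. Each replicate was a separate plant, and no pair of libraries of the same genotype was alike enough to be 1 library entered again.

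Few genes met the whole rule. Genes below 1 CPM in all 3 libraries of a genotype are called near-silent here, whether or not they had reads. In the wild type these numbered 8982. Of these, 147 reached 0.5 CPM in every mutant library, and 27 of the 147 also cleared the 2-fold gap. With the genotypes exchanged in the same rule, 9575 genes lay below 1 CPM in all mutant libraries, 838 of them reached 0.5 CPM in every wild-type library, and 469 cleared the gap. The share of near-silent genes that met the whole rule was thus 0.301% for gains in the mutant and 4.90% for the exchanged rule. Both counts come from the same 6 libraries and their difference was not tested. They also depend on scaling, since all tested genes had a median log2 fold change of -0.19 with total-count scaling. With TMM-adjusted library sizes the gains numbered 36, and the count by the exchanged rule is not given for that scaling. Without mutant replicate 1 the gains numbered 166, and counts with a library left out are not given for the exchanged rule.

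Most near-silent genes that reached 1 CPM in the mutant did so in only 1 or 2 mutant plants. Members are included in these counts, and no gap to the wild type was required. Among the 8982 genes near-silent in the wild type, 218 reached 1 CPM in mutant replicate 1, 379 in mutant replicate 2 and 297 in mutant replicate 3. A level of 1 CPM was reached in exactly 1 mutant plant by 452 genes, in exactly 2 by 188 and in all 3 by 22. For the exchanged case, 521 of the 9575 genes near-silent in the mutant reached 1 CPM in exactly 1 wild-type plant, 305 in exactly 2 and 429 in all 3. Of the genes that reached 1 CPM somewhere, those in a single plant were the largest class in both cases.

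The member means lay between 0.675 and 12.3 CPM in the mutant (median 1.72 CPM) and between 0.00782 and 0.795 CPM in the wild type (median 0.224 CPM). Summed over 3 libraries they had 79 to 1345 counts in the mutant and 1 to 102 counts in the wild type (median 28.0). The member ranked 10 had 17, 44 and 41 wild-type counts, against 105, 93 and 137 in the mutant. A mutant mean of at least 2 CPM was reached by 11 members and one of at least 5 CPM by 3. Every mutant library had at least 1 CPM for 13 of the 27. The members ranked 25, 26 and 27 lay below 1 CPM in every mutant library, as they did in the wild type. In the wild type, 16 members had a mean below 0.25 CPM and 4 a mean below 0.1 CPM. None was at 0 counts in all 3 wild-type libraries, while 4 were at 0 in 1 of them and 3 were at 0 in 2 of them. A count of 0 allows up to 0.0664 to 0.0794 CPM in a wild-type library, for counting error only.

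**Figure D1:**
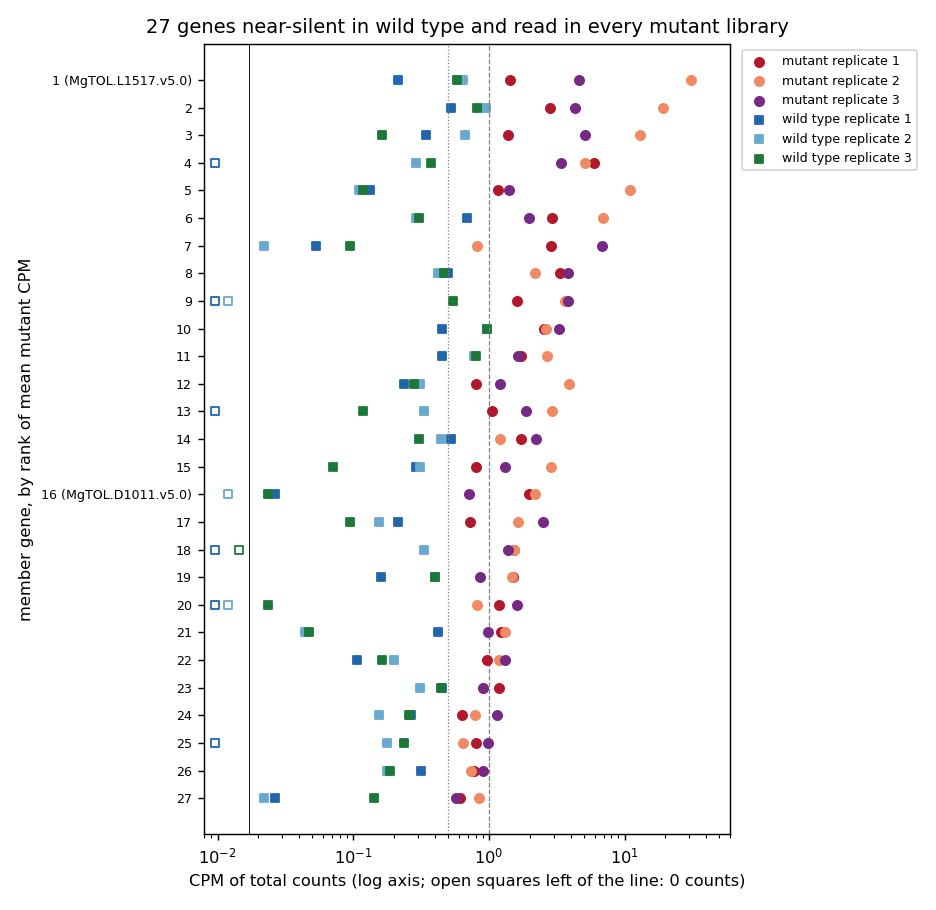
CPM of total counts (log axis) of the 27 members, 1 row per gene ordered by mean mutant CPM. Circles are mutant libraries, filled squares are wild-type libraries, open squares are wild-type libraries at 0 counts, and the lines mark the limits of 0.5 and 1 CPM. Mutant values run from 0.571 to 30.8 CPM and wild-type values from 0 to 0.975 CPM, and mutant replicate 2 lies far to the right in several of the upper rows.

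The member with the most reads in the mutant was MgTOL.L1517.v5.0, whose function is not given in the sources used here. It had 1.44, 30.8 and 4.59 CPM in mutant replicates 1, 2 and 3, against 0.212, 0.642 and 0.586 CPM in wild-type replicates 1, 2 and 3. Mutant replicate 2 was far above the other mutant plants, and mutant replicate 1 was only 2.24 times the highest wild-type library. Mutant plants averaged 12.3 ± 16.1 CPM and wild-type plants 0.480 ± 0.234 CPM (SD, n = 3 each), so the mutant SD exceeded its mean. Its log2 fold change was 4.83 (SE 1.22), and it was not called in the fit over all genes (edgeR quasi-likelihood test, adjusted p = 0.12). Without mutant replicate 2 the log2 fold change was 2.76. The adjusted p was 0.046 without mutant replicate 1 and 6.5e-05 with DESeq2, and over all alternatives it reached up to 0.35.

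Members ranked 2, 3 and 5 had the same shape across mutant plants. The member ranked 2 had 2.80, 19.2 and 4.31 CPM in mutant replicates 1 to 3, against 0.529, 0.952 and 0.821 CPM in the wild type. The member ranked 3 had 1.39, 12.9 and 5.07 CPM in the mutant, against 0.344, 0.664 and 0.164 CPM in the wild type. The member ranked 5 had 48, 392 and 59 counts in the mutant, against 5 counts in each wild-type library. In each of these, mutant replicate 2 was 2.54 to 7.87 times the next highest mutant plant and 6.86 to 9.44 times the lowest in CPM. Every wild-type plant lay below every mutant plant, as the rule requires of each member. The member ranked 4 differed, with 5.90, 5.10 and 3.38 CPM in the mutant and its highest value in replicate 1. Its wild-type values were 0, 0.288 and 0.375 CPM, and its lowest mutant library was 9.01 times its highest wild-type library.

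The widest gap between the genotypes, with wild-type libraries at 0 set to 3 counts, was in MgTOL.D1011.v5.0, also without a stated function. It had 81, 78 and 30 counts in mutant replicates 1 to 3, against 1, 0 and 1 counts in wild-type replicates 1 to 3. All mutant plants carried it, at 1.63 ± 0.800 CPM, against 0.0166 ± 0.0145 CPM for the wild-type plants (mean ± SD, n = 3 each). On that scale its lowest mutant value was 10.7 times its highest wild-type value, against 10.3 times for the member ranked 20, which was the wider by pooled ratio and by log2 fold change. The pooled ratio was 100, with a 95% counting interval of 27.3 to 833, which rests on 2 wild-type counts. Its log2 fold change was 6.63 (SE 1.06, edgeR quasi-likelihood test, adjusted p = 0.038). That call was lost in 6 of 11 alternative fits, among them each fit without a wild-type replicate and those without mutant replicate 2 or 3. DESeq2 gave the smallest adjusted p, 1.8e-05, and the fit without wild-type replicate 1 the highest, 0.15.

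A second member was nearly absent from the wild type. The member ranked 20 had 49, 29 and 68 counts in the mutant, against 0, 0 and 1 counts in the wild type. Its log2 fold change was 6.94, its pooled ratio was 155 and, with a single wild-type count, the 95% counting interval of that ratio ran from 27.3 to 6151. The member ranked 7 had 118, 29 and 286 counts in the mutant, against 2, 1 and 4 counts in the wild type, and mutant replicate 3 was the highest. With ranks 4, 5, 7, 16 and 20, a total of 5 members had a lowest mutant value of at least 8 times the highest wild-type value, with wild-type libraries at 0 set to 3 counts. The median of that ratio over the 27 was 2.87, and 16 members lay below 3. Most members were therefore near the limit of the rule in their least separated pair of libraries.

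**Figure D2:**
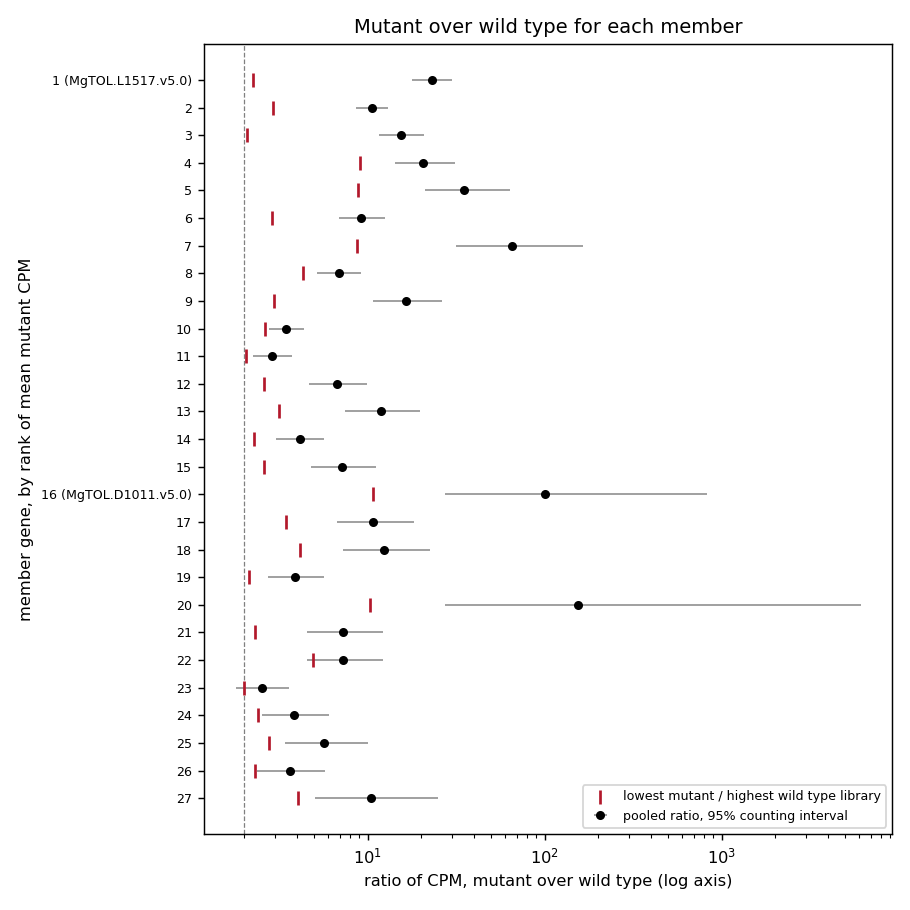
Ratio of CPM, mutant over wild type (log axis), for the 27 members in order of mean mutant CPM. Black points are ratios of counts pooled over 3 libraries with 95% counting intervals, red ticks are the lowest mutant over the highest wild-type library with 0 counts set to 3, and the dashed line marks 2. Pooled ratios run from 2.52 to 155, and red ticks from 2.00 to 10.7.

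Pooled over libraries, the ratio of mutant to wild type had a median of 9.17 and ranged from 2.52 to 155. The rule itself puts every pooled ratio at 2 or above, so the ratios and their intervals are a description and support nothing. For counting error alone, 26 of the 27 members had a lower 95% bound above 2. The exception, ranked 23, had a bound of 1.80. The intervals do not include the spread between plants. That member had 1.19, 0.902 and 0.905 CPM in the mutant, against 0.450, 0.310 and 0.446 CPM in the wild type.

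Members just inside the limits were close to genes just outside. The lowest ratio among members was 2.005, and the nearest gene that met the other conditions had 1.974. The lowest mutant library value was 0.571 CPM inside and 0.428 CPM for the nearest gene outside. The highest wild-type value was 0.975 CPM inside and 1.03 CPM for the nearest gene outside. Another 13 genes met the gap with a highest wild-type value of 1 to 2 CPM, and 10 met it with a lowest mutant value of 0.25 to 0.5 CPM.

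In the fit over all genes, few members were called. Over the 20305 genes tested, 0.310% were called higher in the mutant (edgeR quasi-likelihood test, adjusted p below 0.05). All 27 members passed the count filter, which a gene of their kind can pass through the mutant libraries alone, and 4 of them were called, those ranked 7, 8, 16 and 20. Nothing is read from this count, since the rule used the same contrast. The log2 fold changes of the members ranged from 1.53 to 6.94 with a median of 3.45, and that of all tested genes had a median of 0.01. With scaling to total counts alone, the medians were 3.21 for the members and -0.19 for all tested genes. The member ranked 8 was called with the most even plants of the 4. It had 3.36, 2.17 and 3.83 CPM in the mutant, against 0.503, 0.421 and 0.469 CPM in the wild type, and a log2 fold change of 2.95 (SE 0.51, edgeR adjusted p = 0.0435).

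The number of members called hung on single libraries and on the tool. It was 8 without mutant replicate 1, where 1.10% of all tested genes were called higher. It was 1 without mutant replicate 2 (0.0718% of all) and 0 without mutant replicate 3 (0.0145% of all). Without wild-type replicate 1, 2 or 3 it was 0, against 0.00962%, 0.00962% and 0.0482% of all genes (edgeR, with 21 to 23 members at an unadjusted p below 0.05 in these fits without a call). With all libraries, every member had an unadjusted p below 0.05, as did 7.18% of all tested genes on the higher side. That share is not given for the other fits, and the members were chosen on this contrast. Nothing is therefore read from the counts of members at an unadjusted p. DESeq2 called 19 of the 27, where it called 3.19% of all tested genes higher. In edgeR with other settings, the members called were 4 with RLE factors (0.300% of all), 3 with total-count scaling (0.187%), 3 with no count filter (0.256%) and 0 with a replicate block (0.0739%, with 23 members at an unadjusted p below 0.05 and adjusted p = 0.13 for MgTOL.D1011.v5.0).

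Leaving out a mutant library gave values in a plant that had not chosen the genes, although the wild-type values that chose them were used again. Without mutant replicate 1 the rule chose 166 genes, and 27 of these (16.3%) also met it in that plant. Of the other genes near-silent in the wild type, 2.51% reached the same level there. Without mutant replicate 2 the rule chose 49 genes, of which 55.1% also met it in the plant left out, against 4.29% of the other near-silent genes. Without mutant replicate 3 it chose 48 genes, of which 56.2% met it, against 3.62% of the others. The other near-silent genes did not have to be read in any mutant library, while the chosen genes did. The shares therefore compare unlike sets and are not an independent check of the members. These shares were not tested, and they have their wild-type libraries and many of their genes in common.

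**Figure D3:**
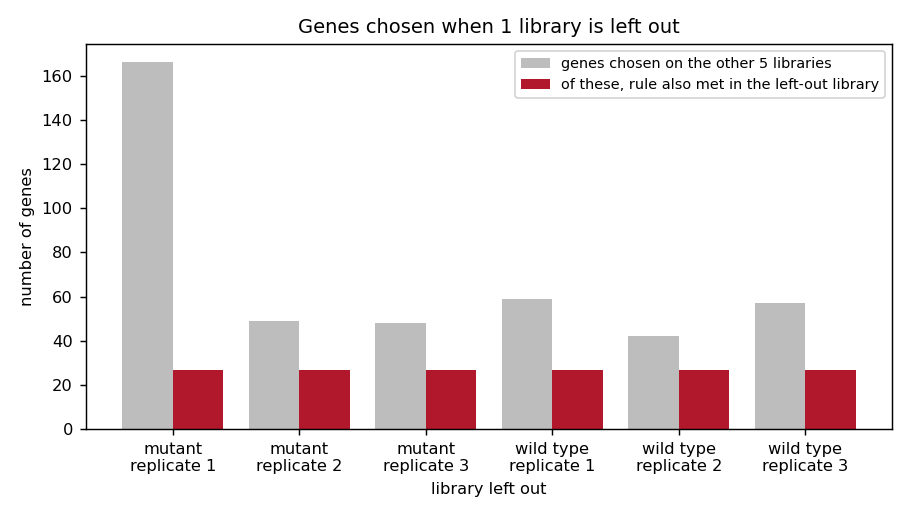
Number of genes chosen by the rule when the library on the x axis is left out (grey) and number of these that also met the rule in that library (red). The red bars are the 27 members each time, and the grey bar reaches 166 without mutant replicate 1, against 42 to 59 without any other library.

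Mutant replicate 1 lacked most of the gains that the other mutant plants shared. Of the 166 genes chosen without it, 67 (40.4%) had 0 counts in it. Another 44 had counts that did not exceed the highest wild-type library. Above the wild type but short of the rule were 28 genes. The median of the 166 was 0.122 CPM in mutant replicate 1, while their means over the other mutant plants had a median of 2.64 CPM and their wild-type means a median of 0.172 CPM.

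Left-out wild-type plants also removed genes. Without wild-type replicate 1 the rule chose 59 genes, and 25 of these were at or above 1 CPM in it. Without wild-type replicate 2 it chose 42 genes, with 7 at or above 1 CPM in that plant. Without wild-type replicate 3 it chose 57 genes, with 20 at or above 1 CPM in that plant. Each of these counts exceeded 27 by over 1.5 times. Leaving out a library removes conditions of the rule, so the list could only grow or stay the same.

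The mutant plants differed in how much of the set they carried. The summed level of the 27 members was 45.3, 123 and 60.5 CPM in mutant replicates 1, 2 and 3, against 6.40, 8.51 and 8.02 CPM in wild-type replicates 1, 2 and 3. The highest mutant plant was 2.71 times the lowest, and in the wild type this ratio was 1.33. The 5 members of highest mutant mean held 64.3% of the sum in mutant replicate 2, against 28.0% and 31.0% in replicates 1 and 3. A high value in 1 mutant plant raises that mean, so these shares are in part fixed by the choice. Members ranked 6, 12 and 15, outside the 5, also had replicate 2 at 2.38, 3.20 and 2.17 times the next mutant plant. Without the 5 of highest mean the sums were 32.6, 43.8 and 41.8 CPM in the mutant, against 5.19, 5.85 and 5.96 CPM in the wild type. The highest of these mutant sums was 1.35 times the lowest, although single members among the 22 differed by up to 8.33 times between mutant plants.

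**Figure D4:**
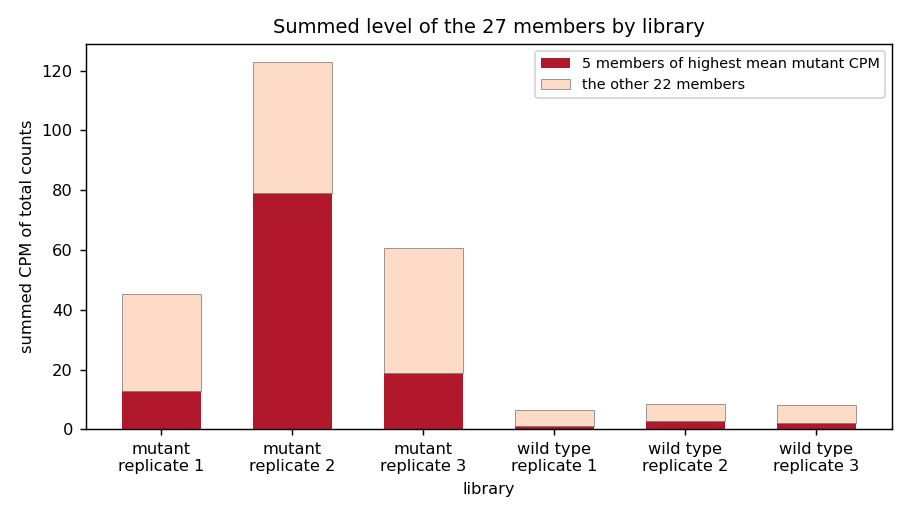
Summed CPM of total counts of the 27 members in each library. Dark bars are the 5 members of highest mean mutant CPM and pale bars the other 22. The sum is 123 CPM in mutant replicate 2, where the dark part holds 79.0 CPM, and 6.40 to 8.51 CPM in the wild-type libraries.

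Gene by gene, 12 members were highest in mutant replicate 2, 11 in mutant replicate 3 and 4 in mutant replicate 1. As shares these were 44.4%, 40.7% and 14.8%. For comparison, 6466 other genes had a mutant mean in the range of the members and at least 0.5 CPM in each mutant library. The gap to the wild type was not required of them, so the sets were not chosen alike. Of these genes, 28.5% were highest in replicate 2, 42.1% in replicate 3 and 29.4% in replicate 1. The highest mutant plant was at least 2 times the next in 8 members (29.6%), of which 7 were highest in replicate 2 and 1 in replicate 3. Among the 6466 genes that share was 15.4%. The median coefficient of variation among mutant plants was 30.5% for the members and 36.0% for these other genes.

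At the other extreme, 15 members had a highest mutant plant under 2 times the lowest, and 7 under 1.5 times. The most even was the member ranked 18, with 1.54, 1.52 and 1.38 CPM in the mutant and a coefficient of variation of 5.79%. In the wild type it had 0, 0.332 and 0 CPM, so its 15 wild-type counts all came from replicate 2. The member ranked 9 likewise had all its wild-type counts in 1 plant, with 0, 0 and 23 counts, against 66, 130 and 160 counts in the mutant. For both, 1 wild-type plant held all the wild-type reads, and their log2 fold changes of 3.86 and 4.15 had SEs of 1.48 and 1.60.

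Identifiers in the table consist of a letter and a number, and no position was inferred from them. The 27 members came from 11 of the 15 letter series. Series D, L and M held 4 members each (14.8% of the members each), while these series held 8.63%, 6.68% and 7.56% of all genes. Series F, G, J and O held none, with 7.80%, 4.79%, 6.98% and 4.49% of all genes.

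Numbers of members were adjacent in 1 pair and 2 apart in another. The adjacent pair, ranked 6 and 22, had 2.92, 6.96 and 1.98 CPM and 0.975, 1.18 and 1.31 CPM in the mutant, so the first was highest in replicate 2 and the second was even. In the wild type they had 0.688, 0.288 and 0.305 CPM and 0.106, 0.199 and 0.164 CPM. The pair 2 apart, ranked 13 and 17, had 1.05, 2.90 and 1.86 CPM and 0.731, 1.63 and 2.50 CPM in the mutant, against 0, 0.332 and 0.117 CPM and 0.212, 0.155 and 0.0938 CPM in the wild type. The gene whose number stands between them had 0.634, 3.83 and 7.26 CPM in the mutant, against 0.476, 0.0443 and 0.610 CPM in the wild type. Its CPM in mutant replicate 1 was close to its highest wild-type value, and it missed the 2-fold gap there.

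Genes with the next lower or higher number are given as a description, since those that met the rule are themselves members and were set aside. The remaining 51 were not members, and 46 of them were tested. All mutant libraries lay above all wild-type libraries in 6 of the 46 (13.0%), against 5.26% of all tested genes. All mutant libraries lay below in 7 of them (15.2%), against 17.4% of all tested genes. None of the 46 was called higher by the edgeR quasi-likelihood test, with 8 at an unadjusted p below 0.05, where 7.18% of all tested genes were on the higher side at that p. DESeq2 called 5, where it called 3.19% of all genes. Without mutant replicate 1 edgeR called 2, where it called 1.10% of all genes higher. It called 0 without any other library, against 0.00962% to 0.0718% of all genes. Called lower were 3 (6.52%), against 1.21% of all tested genes. Whether neighbouring numbers also lie near each other in the genome was not examined.

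The 3 lower neighbours stood beside members ranked 4, 6 and 12, and the 2 given by identifier were chosen after their values were seen. MgTOL.L0222.v5.0, next to the member ranked 4, had 0.195, 1.44 and 0 CPM in the mutant, against 1103, 391 and 337 CPM in the wild type (log2 fold change -9.88, edgeR adjusted p = 0.038). MgTOL.A0506.v5.0, next to the member ranked 6, had 0.414, 0.197 and 0.524 CPM in the mutant, against 238, 62.2 and 10.3 CPM in the wild type (log2 fold change -7.79, edgeR adjusted p = 0.036). The neighbour of the member ranked 12 had 0.0244, 0.0845 and 0.143 CPM in the mutant, against 6.64, 2.86 and 3.31 CPM in the wild type. DESeq2 also called 3 neighbours lower, while edgeR called 0 with a replicate block and without mutant replicate 3, wild-type replicate 1 or wild-type replicate 2, and 1 without any other library. The share of all genes called lower is not given for these fits, so nothing is read from these counts. Changed genes in either direction numbered 1609 with DESeq2, 103 with a replicate block and 62 to 635 with 1 library left out. In each of the 3, no mutant plant overlapped the wild type. That the member beside each ran the other way was fixed by the rule, since all members are higher in the mutant. If the authors' counting did not use strand, reads of overlapping neighbours cannot be told apart, and the strand setting is not given in the sources used here.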

How the data were processed

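RNA of the septum with its ovules was sequenced from 3 mutant and 3 wild-type plants, and the authors deposited 1 table of raw read counts per gene. The submitters' processing notes name featureCounts 1.22.2, SAMtools 1.12, Picard 2.25.6, STAR 2.7.11b and Trimmomatic 0.39. The columns are aligned reads with marked duplicates, per the file headers. Genome build, strand setting and the treatment of duplicates and of reads with several positions are not given in the sources at hand. Reads shared by near-identical copies could therefore be dropped or split, which was not examined for these genes.

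Columns were matched to samples by library name, with 0 other columns. CPM used total counts. All genes were fitted with edgeR 4.0.16 in R 4.3.3 (TMM factors, filterByExpr with minimum count 10 and minimum total 15, a two-sided quasi-likelihood test of genotype with no other term, Benjamini-Hochberg adjustment), after a check on simulated counts. The check used the same dispersion for all genes and raised only genes above a set mean CPM. Most members lie below that mean, so the fit was not checked for genes like them. Log2 fold changes put the mutant over the wild type, and SE is the fold change over the root of F. Pooled ratios have exact conditional 95% intervals that cover counting error only. Alternatives were RLE or total-count scaling, no count filter, DESeq2 1.42.0, a replicate block, other limits of the rule and leaving out each library.

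Without gene names, the naming rule gave 2 members, the one of highest mean mutant CPM and the one of widest gap. Planned gene lists and markers were not used. The members and lists were chosen with earlier results of these data known.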

Additional observations from a re-analysis of the deposited data

How the results depend on the processing

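The rule gave 27 genes, 36 with TMM-adjusted library sizes (all 27 among them) and 18 with wild-type CPM below 0.5, but 9 with a 4-fold gap and 13 with a mutant minimum of 1 CPM. Leaving out 1 library gave 42 to 166. Members called higher numbered 4 (3 without a count filter or with total-count scaling, which was chosen after seeing the data, and 4 with RLE), 19 with DESeq2 and 0 to 8 with 1 library left out. Changed genes numbered 309 in all, 306 to 325 with other scaling or no filter, 1609 with DESeq2 and 62 to 635 with 1 library left out. With a replicate block, 0 members and 103 genes were called, and MgTOL.D1011.v5.0 had an adjusted p of 0.13. Libraries with equal numbers deviated from their genotype means with correlations of 0.093, 0.199 and -0.028. For unequal numbers the correlations ran from -0.152 to 0.046. The labels do not say that numbers pair plants. The cause of these changes was not tested. Without the 5 members of highest mutant mean, the share of counts was 0.00394% in the mutant, against 0.00762% with them, and 0.000566% in the wild type, against 0.000764%. No alternative reversed the log2 fold change of MgTOL.L1517.v5.0 or MgTOL.D1011.v5.0. Depth limits the ratios of 2 members, which rest on 1 or 2 wild-type counts.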
